A study of Mus musculus with 3 samples.

Results

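The 10 genes described here encode the neuropilins Nrp1 and Nrp2, the class 4 semaphorins Sema4a, Sema4b and Sema4d, the class 7 semaphorin Sema7a, and the plexins Plxna1, Plxnb2, Plxnc1 and Plxnd1. They were taken by symbol from the 55536 genes of the deposited gene tables, and all 10 symbols were found, each on 1 gene. The samples are 3 libraries of polyadenylated RNA from mouse regulatory T cells (Tregs) that had experienced inflammation, at an age of 12 weeks. The labels call the libraries technical replicates of 1 biosample from 1 donor, with activated Tregs as the source and the sex not collected. No genotype, no inflammatory agent and no sorting gate were given in the sources used here, and there was no second condition, so every comparison below is between genes or between libraries.

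Semaphorins are secreted, membrane-bound or lipid-anchored ligands, and plexins are the transmembrane receptors that most of them bind. A plexin carries a domain inside the cell that acts on small GTPases of the Ras and Rap families, and plexins of class B also recruit activators of Rhoa. Neuropilins have a short inner tail and act mainly as co-receptors, for secreted semaphorins together with class A plexins and for vascular endothelial growth factors (VEGFs) together with their receptors. In mice Nrp1 is widely used as a surface marker of Tregs that arose in the thymus, and Sema4a on neighbouring cells is a ligand for Nrp1 on Tregs.

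The 3 libraries held 35592206, 31611422 and 37728241 expected counts, which are reads shared out over genes by a model. Markers of Tregs were present in all libraries. The lineage factor Foxp3 reached 97.6 ± 1.04 TPM (a level per transcript length, scaled to a fixed total, with the SD, n = 3 here and below). All 6 genes of the Treg list were detected: Foxp3, Il2ra, Ctla4, Ikzf2, Cd4 and Cd3e. Of these, Cd4 and Cd3e are not particular to Tregs, and detection does not measure purity. Library 3 stood apart by 6 salivary gland markers, which summed to 4.91, 11.0 and 56788 TPM in libraries 1 to 3. TPM values of a library share 1 total, so those transcripts lower the TPM of every other gene in library 3. Tests of a gene between libraries therefore used TMM CPM, which are counts scaled by library size and a factor per library (the trimmed mean of M values). The test over all 3 libraries was repeated without each library. Marker sums, transcript levels and some pathway genes are compared between libraries in TPM only, with no such correction and no test. The SD measures the spread between libraries labelled technical, not between mice.

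Nrp1 and Sema4d were the abundant transcripts among the 10 genes, 3 genes stood between 19.3 and 31.9 TPM, and the other 5 lay at or below 5.04 TPM in every library. A gene counted as detected where no library had less than 1 TPM, and 8 of 10 genes were detected, beside 23.2% of all genes and 47.6% of protein-coding genes. Sema7a and Nrp2 were below that level in all 3 libraries. Detection counts all transcripts of a gene, and the coding transcripts of Plxnb2 alone were below 1 TPM in libraries 2 and 3. In a bulk library, fewer cells that express a gene and less of its RNA per cell cannot be told apart. From the highest to the lowest mean TPM the order was Nrp1, Sema4d, Sema4a, Plxnc1, Sema4b, Plxnd1, Plxna1, Plxnb2, Sema7a and Nrp2.

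Of the 9 neighbouring pairs in that order, 4 were apart, which meant that the difference had 1 sign in all libraries, that the library ranges were separate and that the authors' bounds on TPM were separate in each library. They were Nrp1 over Sema4d, by 0.86 ± 0.14 on the log2(TPM + 1) scale, Sema4d over Sema4a, by 2.57 ± 0.28, Sema4b over Plxnd1, by 2.13 ± 0.28, and Plxnb2 over Sema7a, by 0.97 ± 0.14. The order was not settled within 3 runs of neighbours: Sema4a, Plxnc1 and Sema4b, then Plxnd1, Plxna1 and Plxnb2, then Sema7a and Nrp2. An exact permutation test over sign flips, two-sided, gave p = 0.25 for 7 pairs, the smallest p that 3 libraries allow, and p = 0.5 for the other 2 (0.32 and 0.5 adjusted over the 9 pairs).

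**Figure D1:**
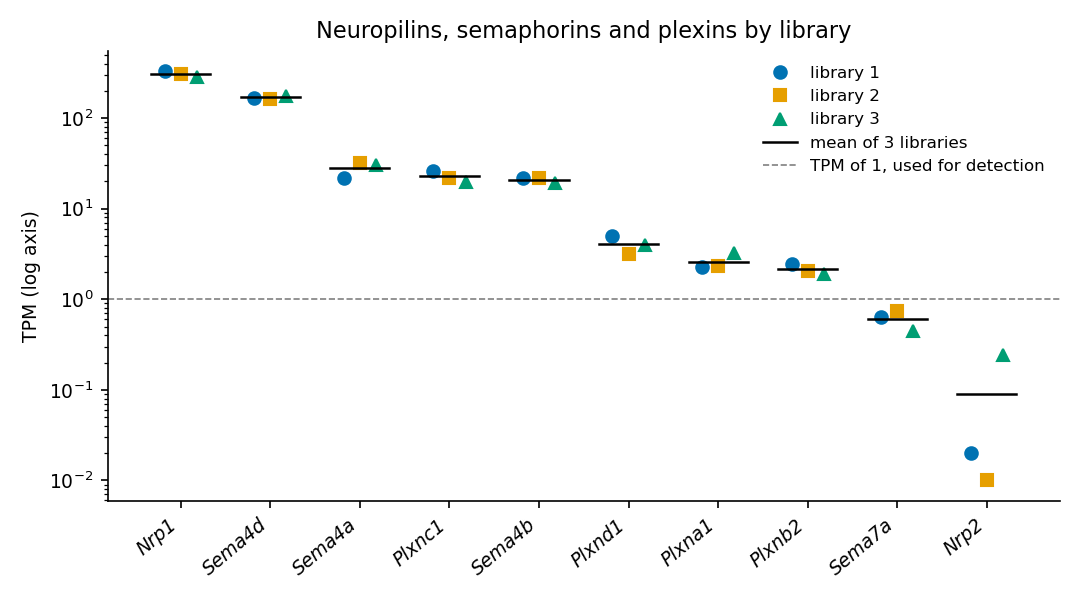
TPM (log axis) of the 10 genes in libraries 1 to 3 (circles, squares and triangles), with the mean of the 3 libraries as a bar and a dashed line at a TPM of 1. Nrp1 and Sema4d stand at 163.4 TPM or more in every library, and Sema7a and Nrp2 stand below 1 TPM in every library.

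Nrp1 (ENSMUSG00000025810.9, mm10 chromosome 8, 128358604 to 128503363, plus strand) had 329.9, 310.9 and 287.2 TPM in libraries 1 to 3. Its expected counts were 24213, 19987 and 23132, and its TMM CPM were 666, 629 and 630. The gene ranked 424 by mean TPM among 22028 protein-coding genes, so 98.1% of them were lower. Library 1 was the highest on both scales, by a small margin, and libraries 2 and 3 were close to each other in TMM CPM. On these counts a chi-square test of the 3 libraries against Poisson counting noise, adjusted over all 18253 genes tested, called the difference (adjusted p = 8.2e-11), at a ratio of 1.06 between the highest and the lowest library, and without library 1 the call ended (adjusted p = 0.67). The authors' bounds lay below the TPM in each library, from 304 to 312 in library 1, because they surround the posterior mean TPM (308 in library 1) and not the TPM.

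Nrp1 transcripts were split between the coding form and transcripts that keep intron sequence. The only Nrp1 transcript annotated as protein-coding, Nrp1-201, took 69.2, 67.3 and 71.4% of the gene's TPM. Nrp1-203, annotated as a retained intron, took 21.6, 26.3 and 21.6%. The coding transcript alone amounted to 214 ± 12.3 TPM. Both transcripts share the end of exon 2 of Nrp1-201, whose last base is 128363393, and then part: Nrp1-201 joins exon 3, while Nrp1-203 reads on into the intron of 55319 bases and ends inside it. They are shown because a read well across this point tells them apart, with the last 30 bases of the shared exon in lower case and the 30 bases that follow in capitals.
Nrp1-201: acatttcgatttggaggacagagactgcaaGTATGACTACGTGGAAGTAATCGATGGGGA
Nrp1-203: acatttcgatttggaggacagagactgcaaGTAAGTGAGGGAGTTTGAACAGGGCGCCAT
Both runs of capitals open with GTA, so the sequences part from the fourth capital on. GT is the usual start of an intron, and here exon 3 opens with the same bases. Mir1903, a microRNA gene inside the locus on the same strand, was assigned 118.5, 98.9 and 107.4 expected counts, a small number beside those of Nrp1.

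Other cells that carry Nrp1 are plasmacytoid dendritic cells and endothelium. The 6 markers of plasmacytoid dendritic cells summed to 110.1, 110.0 and 100.2 TPM, most of it from Pacsin1 and Irf8. Of the 6, 4 were detected, with Tcf4 at 9.89, 6.94 and 8.06 TPM and Ccr9 at 3.04, 3.21 and 3.07 TPM. Siglech stood at 0.15, 0 and 0.38 TPM and Cox6a2 at 0, 0 and 0.26 TPM. The 5 endothelial markers summed to 68.9, 83.5 and 71.1 TPM, nearly all of it Pecam1, and Tek, Tie1, Cdh5 and Emcn each stayed at or below 0.52 TPM. The first sum was lowest in library 3 and nearly equal in the other 2, and the second was highest in library 2. Their part in the difference of Nrp1 between libraries was not tested.

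Nrp2 (ENSMUSG00000025969.15, mm10 chromosome 1, 62703285 to 62818695, plus strand), the other neuropilin, had 0.02, 0.01 and 0.24 TPM. These values rest on 3, 1 and 21 expected counts, with exact 95% Poisson intervals of 0.619 to 8.77, 0.0253 to 5.57 and 13.0 to 32.1 that cover counting error only. Library 3, the library with the salivary gland transcripts, lay above the other 2, and its interval did not overlap theirs. The second deposited table gave Nrp2 only 4, 1 and 5 counts and no such excess. The mean count was below the minimum of 10 set for the chi-square test, so Nrp2 was not tested with all 3 libraries. It passed the minimum and was called without library 1 and without library 2, and it was called with no minimum. Nrp1 made up 99.97% of the summed neuropilin TPM on average, and the difference of Nrp1 over Nrp2 was 8.16 ± 0.26 on the log2(TPM + 1) scale.

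Sema4d (ENSMUSG00000021451.16, mm10 chromosome 13, 51685529 to 51793747, minus strand), also known as CD100, had 168.9, 163.4 and 176.6 TPM. Its expected counts were 15566, 13102 and 17876, and its TMM CPM were 428, 412 and 487. Library 3 was the highest on both scales and library 2 the lowest. The chi-square test called the difference between libraries (adjusted p = 2.9e-52), at a ratio of 1.18 between the highest and the lowest. Among all 20 semaphorins of the mouse on the list used, Sema4d accounted for 72.2 ± 2.00% of the summed TPM, and 95.7% of protein-coding genes had a lower mean TPM.

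Nearly all Sema4d RNA was assigned to coding transcripts, 97.0 ± 1.28% of the gene's TPM. Sema4d-201 took 65.3 ± 5.37% and Sema4d-203 25.5 ± 4.16%, and both carry 2583 coding bases and start at 51793747 and 51793673. A shorter coding transcript from the far end of the gene, Sema4d-204 with 555 coding bases, took 4.37 ± 0.617%.

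Sema4a (ENSMUSG00000028064.17, mm10 chromosome 3, 88435959 to 88461182, minus strand), the ligand of Nrp1, Plxnd1 and class B plexins, had 22.1, 31.9 and 30.2 TPM. Its expected counts were 1162, 1428 and 1683, and its TMM CPM were 32.0, 44.9 and 45.8. Library 1 was the lowest on each of these scales, and libraries 2 and 3 were close in TMM CPM. The chi-square test called the difference (adjusted p = 1.5e-22), with a ratio of 1.43, and in pairs of libraries the log2 ratio was -0.49 for library 1 over library 2 and -0.52 for library 1 over library 3. Without library 1 the call ended (adjusted p = 0.60). At mean counts of 1000 or more, 3.34% of genes had a ratio of at least 1.5 and the median ratio was 1.14. Dendritic cells are another known source of Sema4a. The 6 markers of conventional dendritic cells summed to 7.78, 4.38 and 2.26 TPM, nearly all of it Zbtb46, with 7.09, 3.75 and 1.79 TPM. Zbtb46 was the only 1 of the 6 detected, and the other markers lay below 1 TPM, near the floor. Xcr1, with 0.56, 0.05 and 0.20 TPM, was highest in library 1. Flt3, with 0.12, 0.24 and 0.18 TPM, and Itgax, with 0.01, 0.34 and 0.03 TPM, were lowest there. Clec9a had 0, 0 and 0.06 TPM, and Cd209a stood at 0 in all 3. Their part in the difference was not tested.

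Sema4a transcripts differed in where they start and in whether they keep introns. Sema4a-214 took 43.2, 46.8 and 45.2% of the gene's TPM, Sema4a-211, annotated as a retained intron, took 18.3, 19.3 and 20.7%, and Sema4a-201 took 16.8, 7.56 and 8.05%. Sema4a-214 and Sema4a-201 encode the same 2280 coding bases from first exons that begin at 88461182 and 88455739. Sema4a-215 and Sema4a-213 also carry 2280 coding bases and start between these, at 88458884 and 88459101. Both were assigned 0 TPM in all libraries. In TPM, Sema4a-214 stood at 9.53, 14.9 and 13.7 and Sema4a-201 at 3.71, 2.41 and 2.43. The form from the outer start was thus lowest in library 1, like the gene, and the form from the inner start was highest there. By the authors' posterior mean TPM, Sema4a-214 had 4.59, 7.07 and 8.14 and Sema4a-201 had 2.99, 1.86 and 2.04, and the share of Sema4a-214 was 20.1, 21.9 and 27.1%, so its share depends on which estimate is used. By that estimate Sema4a-215 had 2.05, 3.65 and 2.79 TPM, above Sema4a-201 in libraries 2 and 3. Sema4a-213 had 0.96, 0.80 and 1.04 TPM. No test across transcripts was run.

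The 250 bases before the starts of Sema4a-214 (outer) and Sema4a-201 (inner) are given, and not those before the starts in between. In library 1 the form from the outer start was lowest and the form from the inner start highest, by both estimates. The printed bases come from RefSeq on GRCm38.p6, the assembly that mm10 names, and are on the gene's strand. The window of the outer start is chr3:88461183-88461432 and ends right before the first base of Sema4a-214. The window of the inner start is chr3:88455762-88456011 and lies just upstream of the first base of Sema4a-201. Capitals mark GGGCGG, a motif known as a GC box, or its reverse complement CCGCCC.
Sema4a outer start: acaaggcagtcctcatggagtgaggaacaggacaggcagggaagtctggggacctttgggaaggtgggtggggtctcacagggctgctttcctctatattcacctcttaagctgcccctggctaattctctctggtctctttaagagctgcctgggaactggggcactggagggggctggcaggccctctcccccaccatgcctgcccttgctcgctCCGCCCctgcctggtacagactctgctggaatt
Sema4a inner start: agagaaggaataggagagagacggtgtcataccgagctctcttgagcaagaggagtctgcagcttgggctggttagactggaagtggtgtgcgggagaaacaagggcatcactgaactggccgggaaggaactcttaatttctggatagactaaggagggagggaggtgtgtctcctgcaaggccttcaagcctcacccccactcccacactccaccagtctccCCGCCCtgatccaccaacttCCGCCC
The outer window holds 2 CG dinucleotides and 1 GC box match, and the inner window holds 6 and 2. TATAAA was searched on both strands too and is in neither window. Over all 32851 windows of the same length, 32.7% hold a GC box match, 12.4% hold TATAAA, and the median number of CG dinucleotides is 6. Of the 10 genes, 9 have entries in that table, with 16 windows between them, of which 81.25% hold a GC box match and 0% hold TATAAA, with a median of 13 CG dinucleotides. A match is a description of these letters only.

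Sema4a-211 keeps an intron of 135 bases that follows exon 8 of Sema4a-214, whose last base is 88449988. The shared end of that exon is in lower case, and the capitals show what follows in the spliced form and in the form that keeps the intron.
Sema4a-214: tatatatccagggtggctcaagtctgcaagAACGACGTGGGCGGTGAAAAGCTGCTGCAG
Sema4a-211: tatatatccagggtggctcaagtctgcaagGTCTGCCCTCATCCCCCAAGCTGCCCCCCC
The form that keeps the intron continues with GT, and the spliced form does not. Retained-intron transcripts together took 30.2 ± 2.92% of the TPM of Sema4a and 23.5 ± 2.87% of its reads.

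Sema4b (ENSMUSG00000030539.13, mm10 chromosome 7, 80186841 to 80226527, plus strand) had 21.7, 21.8 and 19.3 TPM. It encodes a membrane-bound class 4 semaphorin. It was assigned 1315, 1101 and 1237 expected counts, and its TMM CPM were 36.2, 34.6 and 33.7. The 3 libraries lay within a ratio of 1.07, and the chi-square test did not call a difference (adjusted p = 0.22). Scaled by total counts in place of TMM, the same test gave an adjusted p of 0.015.

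Sema4b had the largest retained-intron share of the 10 genes by TPM, 51.4 ± 4.81%, against 30.8 ± 5.32% of its reads. The leading form is short. Sema4b-203, a retained-intron transcript of 1202 bases, took 36.2, 38.7 and 35.5% of the TPM. Of its 2 coding transcripts, Sema4b-204, of 3760 bases, took 25.7, 30.8 and 18.3%, and Sema4b-201 took 28.5, 15.5 and 27.2%, more than Sema4b-204 in libraries 1 and 3. Both share exon 3 of Sema4b-204, with its last base at 80213325, and Sema4b-203 reads on into the intron of 2298 bases.
Sema4b-204: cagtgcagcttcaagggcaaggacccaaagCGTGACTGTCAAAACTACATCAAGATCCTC
Sema4b-203: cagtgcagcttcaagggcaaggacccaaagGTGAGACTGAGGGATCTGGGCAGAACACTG
In capitals, Sema4b-204 goes on with exon 4 and the other form with intron sequence that opens with GT. Gm45206, a gene of unsettled type on the same strand, overlaps Sema4b and was assigned 54, 17 and 9 expected counts.

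Sema7a (ENSMUSG00000038264.8, mm10 chromosome 9, 57940112 to 57962865, plus strand), the lipid-anchored ligand of Plxnc1 and of integrins with the beta 1 chain, had 0.63, 0.74 and 0.45 TPM. These rest on 45, 43 and 35 expected counts, with exact 95% Poisson intervals that overlapped among all 3 libraries. The chi-square test did not call a difference (adjusted p = 0.32), at a ratio of 1.42. With counts this low, a missing call does not show equal levels. Genes with mean counts of 10 to under 100 had a median ratio of 2.81, and 84.9% of them a ratio of at least 1.5. That range includes genes with fewer counts than Sema7a, where counting noise alone gives larger ratios. Sema7a made up 0.259 ± 0.0664% of the summed semaphorin TPM.

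Plxnc1 (ENSMUSG00000074785.5, mm10 chromosome 10, 94790866 to 94944835, minus strand), the receptor of Sema7a, was the leading plexin with 26.4, 22.0 and 19.7 TPM. It took 57.2 ± 5.43% of the summed TPM of all 9 plexins. Its expected counts were 2754, 2276 and 2412, and its TMM CPM were 75.7, 71.6 and 65.7. Library 1 was the highest and library 3 the lowest, and the chi-square test called the difference (adjusted p = 4.9e-06) at a ratio of 1.15. The call ended without library 3 (adjusted p = 0.060).

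The length of the transcripts bears on the TPM of Plxnc1. In library 1, Plxnc1-205, a non-coding transcript of 352 bases, was assigned 62.5 reads, or 2.27% of the reads of the gene, but 35.4% of its TPM. Over the 3 libraries the coding transcript Plxnc1-201 took 98.0 ± 0.374% of reads and 68.1 ± 4.27% of TPM. Its own level was 16.8, 15.9 and 13.5 TPM, lowest in library 3 like the gene.

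Plxnd1 (ENSMUSG00000030123.15, mm10 chromosome 6, 115954811 to 115995005, minus strand), a receptor of Sema3e and Sema4a, had 5.04, 3.17 and 3.94 TPM. The expected counts behind them were 614, 337 and 548, and its TMM CPM were 16.9, 10.6 and 14.9. Library 2 was the lowest on both scales. The chi-square test called the difference (adjusted p = 1.3e-10) at a ratio of 1.59, a ratio of at least 1.5 being reached by 36.1% of genes with mean counts of 100 to under 1000, of which 78.9% were called. Without library 2 the call ended (adjusted p = 0.074).

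Plxna1 (ENSMUSG00000030084.11, mm10 chromosome 6, 89316314 to 89362620, minus strand), a signalling partner of neuropilins, had 442, 220.0 and 466 expected counts and TMM CPM of 12.2, 6.92 and 12.7. Library 2 was the lowest by counts, at a ratio of 1.83 to the highest (adjusted p = 1.4e-13), and without library 2 the call ended (adjusted p = 0.60). The TPM did not follow the counts, with 2.28, 2.34 and 3.21. In library 2, 6.9 reads on Plxna1-205, a transcript of 459 bases annotated for nonsense-mediated decay, took 37.1% of the gene's TPM, against 0% in library 1 and 27.3% in library 3. The mean transcript length used for the gene was 8825, 4894 and 6073 bases. Coding transcripts of Plxna1 alone stood at 2.29, 1.47 and 2.34 TPM, with library 2 the lowest, as in the counts.

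Several other values were lowest in library 2 along with Plxna1 and Plxnd1. The 6 macrophage and monocyte markers summed to 4.14, 2.59 and 4.46 TPM, the 4 fibroblast markers to 1.82, 0.69 and 1.18 TPM, and the 4 epithelial markers to 35.8, 26.4 and 44.5 TPM. Of these lists 1 of 6, 0 of 4 and 1 of 4 markers were detected (Cd68 and Epcam), and Krt14 stood at 0 in all libraries. Gm26811, antisense to Plxna1, was assigned 65.9, 0 and 27.5 expected counts, and since the use of strand in counting is not stated, reads of the gene and of its antisense partner may not have been separated. The part of these in the differences was not tested.

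Plxnb2 (ENSMUSG00000036606.17, mm10 chromosome 15, 89155549 to 89180788, minus strand), a class B plexin that binds Sema4 ligands, had 2.47, 2.05 and 1.91 TPM. Behind these values were 193, 126 and 133 expected counts, and its TMM CPM were 5.31, 3.96 and 3.62. Library 1 was the highest, and the chi-square test called the difference (adjusted p = 0.0021) at a ratio of 1.47, which without library 1 was lost (adjusted p = 0.56). Coding transcripts of Plxnb2 took 86.2 ± 2.27% of its reads and 43.3 ± 5.39% of its TPM. Alone they stood at 1.21, 0.88 and 0.72 TPM, against 0.63, 0.67 and 0.45 TPM for the coding transcript of Sema7a. The call of Plxnb2 over Sema7a above used all transcripts. The assignment to its 2 coding transcripts was unsteady: Plxnb2-202 took 34.9, 0 and 11.7% of the TPM and Plxnb2-201 took 14.0, 42.8 and 26.4%.

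**Figure D2:**
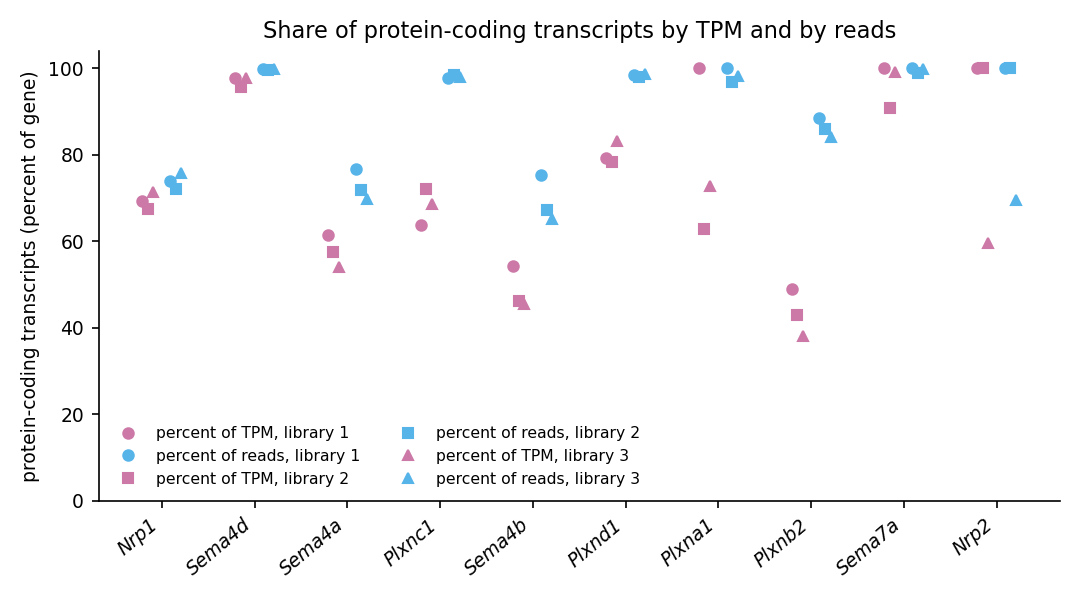
Percent of each gene taken by transcripts annotated as protein-coding, by TPM (pink, left) and by reads (blue, right), in libraries 1 to 3 (circles, squares and triangles). For Plxnc1 the shares by reads lie near 98.0% and those by TPM between 63.6 and 72.1%, while Sema4d is at 95.5% or more by both measures.

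Across the 10 genes the median coding share by TPM was 73.9% over the 3 libraries. The gap between reads and TPM was widest where short transcripts drew a few reads from a long gene, as in Plxnb2 and Plxnc1, and small in Sema4d and Nrp1. For Nrp1, 73.9 ± 1.82% of reads and 69.3 ± 2.04% of TPM were assigned to the coding transcript. These assignments are estimates of the authors' model for reads that often fit several transcripts.

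The share of these genes that differed between libraries was near that of all genes. The chi-square test called 7 of the 9 that had enough counts, where 77% of all genes tested were called. The test compares the libraries, not conditions, and deep genes are called at small ratios, with 84.3% called at mean counts of 1000 or more. In pairs of libraries, 5 of the 9 were higher in library 1 than in library 2 (background 31.4%), namely Nrp1, Sema4d, Plxnd1, Plxna1 and Plxnb2, and 1, Sema4a, was lower (28.8%). Against library 3, 3 were higher in library 1 (24.2%), Nrp1, Plxnc1 and Plxnb2, and 2 were lower (24.5%), Sema4d and Sema4a. Between libraries 2 and 3, Plxnc1 was higher in library 2 (27.4%), and 3 genes were lower in library 2 (29.7%), Sema4d, Plxnd1 and Plxna1.

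**Figure D3:**
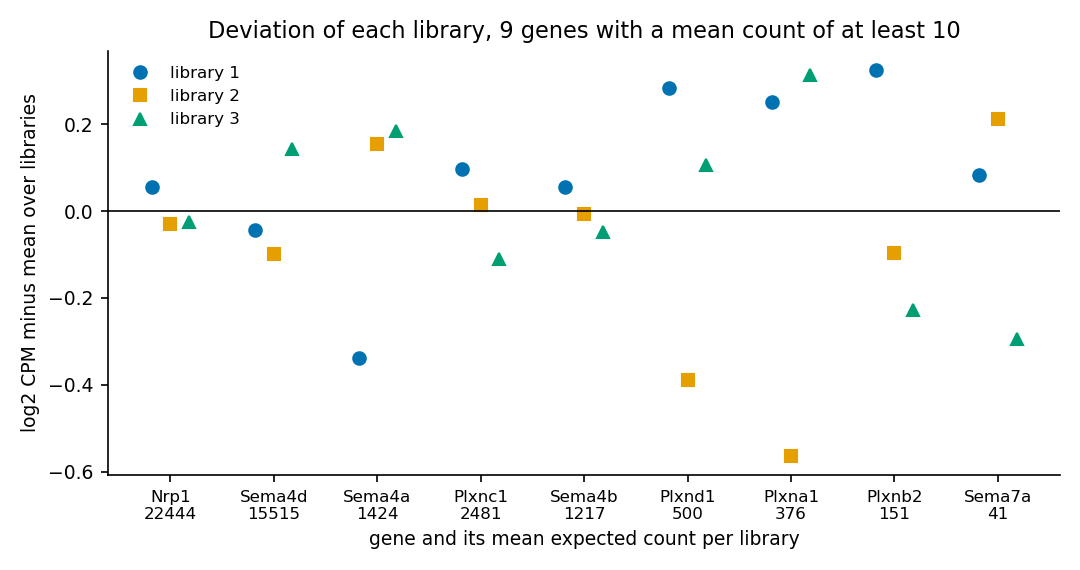
Deviation of log2 TMM CPM from the mean of the 3 libraries for the 9 genes tested, ordered by mean TPM, with the mean count under each name. Library 2 (squares) lies lowest for Plxna1 and Plxnd1, library 1 (circles) lies lowest for Sema4a, and the 3 libraries of Nrp1 lie within a ratio of 1.06.

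For 12 pairs of ligands, receptors and partners, the levels were set side by side, and 11 pairs were apart by the same rule. With 3 libraries the exact permutation p over sign flips was again 0.25 for these 11 (0.27 adjusted over the 12 pairs). The ligand Sema4a stood below Nrp1, by -3.43 ± 0.36 on the log2(TPM + 1) scale, and above its other receptors Plxnd1, by 2.52 ± 0.54, and Plxnb2, by 3.20 ± 0.40. Sema4b was lower than Sema4d, with a difference of -2.96 ± 0.15.

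Sema4d exceeded both of its receptors among the pairs. It stood 5.77 ± 0.16 above Plxnb2 and 1.41 ± 0.29 above Cd72 on the log2(TPM + 1) scale. Cd72, its receptor on lymphocytes, had 77.5, 60.1 and 54.2 TPM. Of 5 B cell markers 4 were detected, and the list summed to 55.6, 61.0 and 53.8 TPM. The highest, Cd79b, had 30.8, 31.7 and 28.8 TPM, and the lowest, Pax5, had 0.02, 0.67 and 0.58 TPM. Which cells carried Cd72 was not tested. Plxnb2 and the other known Sema4d receptor Plxnb1, with 2.32, 4.21 and 3.65 TPM, were not apart, at -0.46 ± 0.46. Sema7a went the other way, below its receptors Plxnc1, by -3.88 ± 0.18, and Itgb1, by -7.87 ± 0.13, the integrin chain having 403, 366 and 358 TPM. Nrp1 exceeded its plexin partners, with differences of -6.43 ± 0.30 for Plxna1 minus Nrp1 and -5.96 ± 0.24 for Plxnd1 minus Nrp1. RNA levels of a ligand and a receptor in 1 bulk sample do not tell which cells carry either protein.

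Among all 31 semaphorins, plexins and neuropilins, 12 were detected, 8 of them among the 10 genes described and 4 among the other 21. Those 4 were Sema4f, with 6.03, 6.46 and 5.92 TPM, Sema6d, with 3.48, 3.57 and 2.98 TPM, Plxna3, with 4.34, 1.79 and 5.70 TPM, and Plxnb1. Plxna3, like Plxna1 a receptor for secreted semaphorins, was lowest in library 2 as well. By subfamily, 5 of 20 semaphorins, 6 of 9 plexins and 1 of 2 neuropilins were detected. Of the secreted class 3 semaphorins, Sema3d came nearest to detection, with 1.25, 1.06 and 0.92 TPM, and it missed 1 TPM in library 3 alone. By posterior mean TPM it had 1.30, 1.19 and 1.03, and would count as detected. By that estimate Sema6c, with 0.99, 2.19 and 1.87 TPM, and Sema4c, with 1.33, 0.56 and 1.14 TPM, would also count as detected. Sema3d, Sema4c and Sema6c are named after their values were seen. The lowest members of the family were Sema3b, with 0, 0.02 and 0.01 TPM, and Sema3g, with 0.06, 0 and 0 TPM. Among plexins the lowest were Plxnb3, with 0, 0.04 and 0.26 TPM, and Plxna2, with 0.05, 0.36 and 0.12 TPM.

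**Figure D4:**
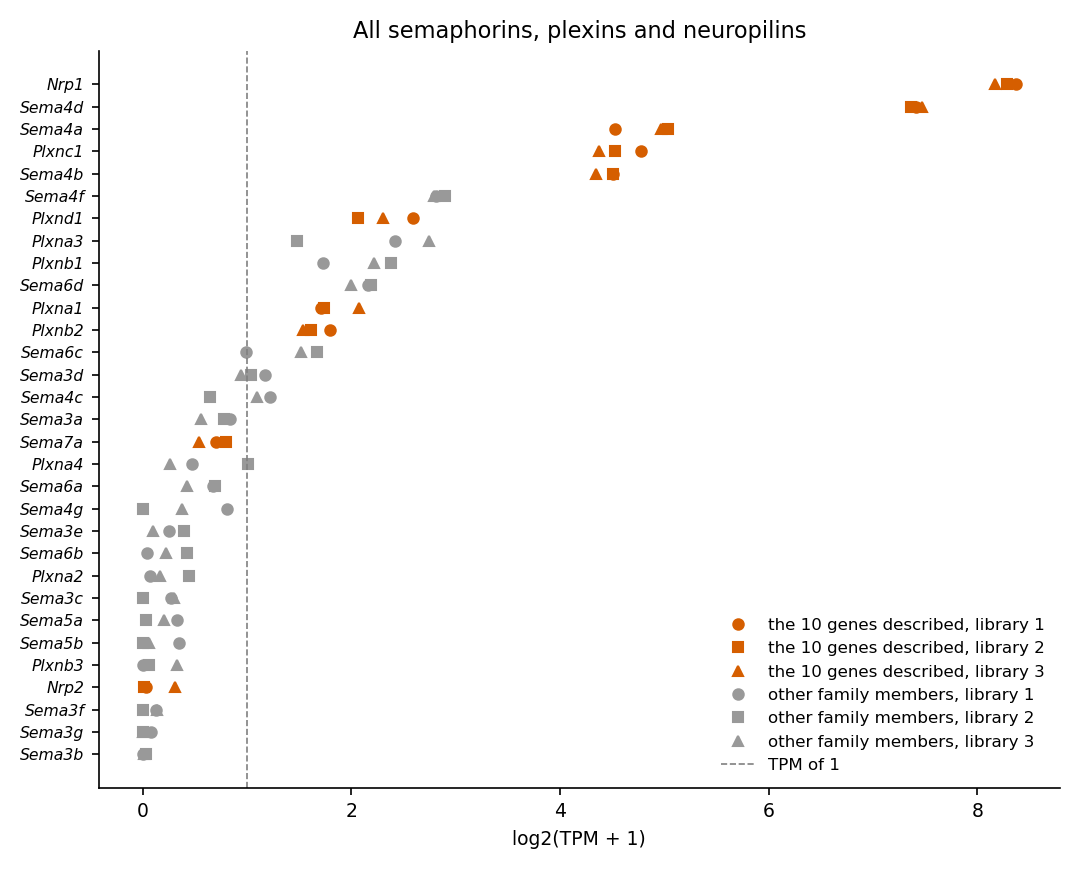
log2(TPM + 1) of all 31 semaphorins, plexins and neuropilins in libraries 1 to 3 (circles, squares and triangles), with the 10 genes described in orange, the other 21 in grey and a dashed line at a TPM of 1. The 5 highest genes are all among the 10 described, and Sema4f is the highest of the other 21.

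The wider pathway was described from fixed lists. Of 7 other semaphorin receptors, 2 were detected, Itgb1 and Cd72. Itga1, the integrin chain that pairs with Itgb1 to bind Sema7a, had 1.15, 1.14 and 0.86 TPM, and Erbb2 0.26, 0.77 and 0.18 TPM. The lowest were Met, with 0.01, 0.09 and 0.14 TPM, and Timd2, a mouse receptor of Sema4a, with 0.17, 0.14 and 0.03 TPM.

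Of 8 VEGF ligands and receptors that can share neuropilins, 2 were detected, both ligands. Vegfb had 9.81, 13.6 and 10.7 TPM and Vegfc 1.39, 1.19 and 2.26 TPM. Vegfa, a ligand of Nrp1, was low at 0, 0.02 and 0.68 TPM, as was Pgf at 0.56, 0.96 and 0 TPM. The lowest were the receptor Flt4, with 0.06, 0 and 0 TPM, and the ligand Vegfd, with 0.02, 0 and 0.06 TPM.

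Inside the cell, 19 of 23 effectors of plexins and neuropilins were detected, with a median of 20.6 TPM, against a median of 1.04 TPM over all protein-coding genes. The small GTPases and kinase at the top were Rac1, at 544 ± 13.9 TPM, the Src-family kinase Fyn, at 460 ± 10.8 TPM, Rap1b, at 373 ± 32.6 TPM, and Rhoa, at 306 ± 13.8 TPM. Their libraries lay within a ratio of 1.11 in TMM CPM. The lowest were Rnd2, at 0.237 ± 0.0416 TPM, and Rnd3, at 0.313 ± 0.333 TPM. Named after their values were seen, Gipc1, which binds the tail of Nrp1, had 44.8, 48.1 and 38.8 TPM, and the activators of Rhoa that bind class B plexins, Arhgef11 and Arhgef12, stood at 15.3 ± 1.05 and 18.7 ± 2.17 TPM.

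Of 3 proteases that can release semaphorins or neuropilins from the surface, Adam10 stood at 80.8 ± 7.60 TPM and Adam17 at 53.4 ± 1.81 TPM. Mmp14, a protease that sheds Sema4d in tumour cells, had 3.78, 0.81 and 5.54 TPM, lowest in library 2. In all, 37 of the 72 pathway genes were detected, 29 of the 62 outside the 10 genes described. Outside those 10, 38 of the 50 genes tested differed between libraries, against 77% of all genes.

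The second deposited gene table, whole-number counts on the older annotation release M4, gave lower counts in every library for all these genes but Nrp2. Nrp2 had 4, 1 and 5 M4 counts against 3, 1 and 21 expected counts, with a ratio of mean counts of 2.5. Nrp1 had 5185, 4917 and 5174 M4 counts, so its M21 count was 4.41 times as large, and Sema4d had 4264, 3928 and 4485, with a ratio of 3.67. The ratio was 1.99 for Plxnc1, 1.77 for Sema4b, 1.58 for Sema4a, 1.54 for Sema7a, 1.43 for Plxna1, 1.24 for Plxnd1 and 1.18 for Plxnb2. Over all 12020 genes compared, the median ratio was 2.12, and it was higher in deeper genes, at 7.52 for M21 counts of at least 10000. By M4 counts, 4 of the 9 genes differed between libraries, against a background of 51.9%: Sema4a, Plxna1, Plxnb2 and Plxnd1. These 4 had the same extreme library in both tables: Sema4a was lowest in library 1, Plxna1 and Plxnd1 were lowest in library 2, and Plxnb2 was highest in library 1. The small differences of Nrp1, Sema4d and Plxnc1 were not called there, with adjusted p = 0.074, 0.27 and 0.71 by the chi-square test. M4 counts totalled 9718021, 8945992 and 9904722 in libraries 1 to 3, against 35592206, 31611422 and 37728241 expected counts. The chi-square test has less power with fewer counts, so a lost call alone does not show equal levels. Whether both tables held the same size and direction of difference for Nrp1, Sema4d and Plxnc1 was not compared. The part of depth in the lost calls was not tested.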

How the data were processed

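The 10 genes, the gene lists and the pairs were chosen with earlier results of these data known. Expected counts, TPM, FPKM (not used for results) and posterior mean TPM with bounds of unstated level were computed by the authors on mm10 with GENCODE M21, per the file headers and labels. The deposited transcript tables give each transcript's percent of its gene's TPM, and the deposited M4 gene tables hold whole-number counts. Aligner, counting program and use of strand are not given in the sources used here. Rows for transfer RNAs and spike-ins (0.170, 0.170 and 0.218% of counts) were left out. Expected counts were rounded and scaled by TMM (edgeR 4.0.16, R 4.3.3). Genes whose mean count was 10 or more were tested by chi-square against Poisson noise, with Benjamini-Hochberg adjustment at 0.05. With 1 group, no contrast between conditions could be made. On simulated counts this test called 58% of 100 genes changed 1.5-fold, 78% of 100 changed 2-fold and 0.0277% of unchanged genes. The simulated counts had Poisson noise only, as the test assumes, so the low rate for unchanged genes was built in. It gives no error rate for real libraries. The changed genes were drawn from all genes tested, low counts included, and were changed in library 3 alone. Pairs of genes were compared on log2(TPM + 1). Other steps used Python 3.11.15, pandas 2.3.3, numpy 2.4.6 and scipy 1.17.1. Named genes are the 10, their pair partners, the 4 highest and 2 lowest of each pathway list and the 2 leading transcripts of each gene. The highest gene is named for some marker lists only. Lists not described above were those of CD8 T cells, natural killer cells, neutrophils and platelets. The CD8 T cell list summed to 19.4, 26.5 and 16.9 TPM, and the others to at most 3.13 TPM in a library. Other genes are named where an overlap or a marker value is given. No sequence of the encoded proteins was used here.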

Additional observations from a re-analysis of the deposited data

How the results depend on the processing

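Detection gave 8 of the 10 genes under posterior mean TPM and without each library, and 5 at a TPM of at least 10. Of the 72 pathway genes, 41 were detected by posterior mean TPM, against 37 by TPM. The number of genes that differed between libraries was 7 of 9 with DESeq2 size factors (77.0% of all genes), 7 of 8 at a mean count of at least 50 (81.3%), 8 of 9 with total counts (77.8%), 8 of 10 with no filter (50.1%) and 4 of 9 in the M4 counts (51.9%). It was 5 of 10 without library 1 (57.8%), 6 of 10 without library 2 (48.8%) and 6 of 9 without library 3 (60.4%). Nrp2 entered the test and was called without library 1, without library 2 and with no filter. Calls lost were Nrp1, Sema4a and Plxnb2 without library 1 (adjusted p = 0.67, 0.60 and 0.56), Plxna1 and Plxnd1 without library 2 and Plxnc1 without library 3. Of the 9 neighbouring pairs, 4 were apart by the main rule, 8 by CPM with no length correction, 7 by M4 counts per kilobase, where the condition on bounds was left out, and 4 to 5 without each library. Sema4a minus Plxnc1 reversed to -0.80 without length correction. Plxnc1 minus Sema4b reversed to -0.046 and Plxna1 minus Plxnb2 to -0.0085 in the M4 counts per kilobase, and the cause was not tested. Ligand and receptor pairs apart numbered 11 to 12 without each library. The median coding share by TPM was 67.5% with posterior mean TPM, and between 69.9 and 74.7% without each library. No paired analysis was possible because there was 1 group. Depth limits Nrp2 and Sema7a, which rest on at most 21 and 45 counts in a library.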
